A study of Mus musculus with 6 samples.

Results

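The collagen network of basement membranes and the proteins that fasten it were followed in mouse kidneys with and without the Wnt receptor Fz4, through 10 genes. These are the 6 type IV collagen chains Col4a1 to Col4a6, the nidogens Nid1 and Nid2, Hspg2, which encodes perlecan, and Agrn, which encodes agrin. All probe sets that the platform annotation gives to 1 of these genes alone were taken, which gave 20 of the 45101 probe sets on the Affymetrix MOE430.2 array. RNA came from whole kidneys at E13.5, with 3 Fz4-/- arrays and 3 Fz4+/+ arrays, and each of 3 litters supplied 1 array of each genotype. The strain, the kind of Fz4 allele and the number of embryos behind an array are not given in the sources used here, so p-values measure the spread between these samples only.

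Basement membranes are thin sheets of matrix that underlie epithelia and surround vessels and muscle fibres. Type IV collagen forms their covalent mesh from chains that assemble as triple helices: the chains of Col4a1 and Col4a2 combine with each other in nearly all tissues, those of Col4a3, Col4a4 and Col4a5 build the mesh of the mature glomerulus, and those of Col4a5 and Col4a6 meet in some epithelia and in smooth muscle. Nidogens bridge the collagen and laminin meshes, and perlecan and agrin carry heparan sulfate chains. In the kidney, loss of the glomerular chains underlies Alport syndrome, a hereditary nephritis.

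The collagen genes lie in head-to-head pairs. The stretches before Col4a5 and Col4a6 are shown because both of these X-linked partners were measured and one array stood low on each. That array was the lowest on 12 of all 16 tested probe sets, so its low reading is not particular to this pair. The sequences are RefSeq's for the assembly GRCm38.p6, and 8 of the 10 genes matched an entry. The starts of Col4a6 (minus strand) and Col4a5 (plus strand) are separated by 1342 bases on the X chromosome. Of the 250 bases before each start, those outside the gene's longest RefSeq model are printed 5′ to 3′ on the gene's own strand, which leaves 201 bases for Col4a5 (chrX:141475169-141475369) and 231 for Col4a6 (chrX:141474096-141474326). Capitals mark matches to 3 motifs searched on both strands, which were the GC box (GGGCGG), the CCAAT box (CCAAT) and the TATA box (TATAAA), none of which overlaps another in letters.
Col4a5: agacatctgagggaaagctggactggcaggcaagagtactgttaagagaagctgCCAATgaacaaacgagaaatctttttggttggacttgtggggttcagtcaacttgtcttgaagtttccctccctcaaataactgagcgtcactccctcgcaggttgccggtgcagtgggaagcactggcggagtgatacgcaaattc
Col4a6: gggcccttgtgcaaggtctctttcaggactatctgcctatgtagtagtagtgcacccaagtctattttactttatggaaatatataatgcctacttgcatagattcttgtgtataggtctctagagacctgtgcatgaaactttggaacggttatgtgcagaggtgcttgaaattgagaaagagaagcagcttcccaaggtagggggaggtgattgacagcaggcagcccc

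Over the whole 250 bases, the window of Col4a5 held 1 GC box and 1 CCAAT box, and that of Col4a6 held 1 GC box. Both GC boxes lie at least partly within the bases that are not printed. The models of Col4a1 (minus strand) and Col4a2 (plus strand) on chromosome 8 overlap by 22 bases at their starts (chr8:11312805-11312826), a stretch with 1 GC box. Of all 32851 windows of 250 bases in the RefSeq table, 32.7% held a GC box, 33.8% a CCAAT box and 12.4% a TATA box. The windows before Col4a1 and Col4a2 were 74.4% and 73.6% G and C, richer than 95.4% and 94.7% of all windows. Those of Col4a5 and Col4a6 were 54% and 47.6%, near the median of 52.4% over all windows. A match describes letters only.

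Values are log2 signals, and probe sets differ in how well they bind, so the signal of a probe set was compared between arrays and never with that of another probe set. Of the 20 probe sets, 16 had a mean at or above 5.89 log2, the 40th percentile of all probe sets, and were tested. The other 4 lay below it, and they were both probe sets of Col4a3, 1 of 3 of Col4a4 and 1 of 2 of Agrn.

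The median signal of the arrays lay between 6.62 and 6.74 log2. With 3 arrays a genotype, precision is limited by their number. A principal component analysis put 70.8% of the variance on its leading axis, which placed both arrays of litter 3, at 48.7 and 70.1, above those of litters 1 and 2, at -48.9 to -0.098. Fzd4, which encodes Fz4, read 3.58 to 6.22 on probe set 1434756_at in Fz4-/- kidneys and 10.31 to 11.21 in Fz4+/+ kidneys, and 4.05 to 5.05 against 7.53 to 8.48 on 1419301_at. The remaining probe set of Fzd4, 1449416_at, read 2.93 to 3.17 on all arrays, with a difference of -0.0024. The kidney markers Six2, Foxd1, Ret and Wt1 were above the filter on every array, whereas the podocyte gene Nphs1 read 4.07 to 4.50. RNA quality was followed as 3′ minus 5′ signal, which lay between 0.636 and 0.904 log2 for actin and between 0.75 and 0.897 for Gapdh. Their exact permutation p between the genotypes was 0.4 and 0.2. The Y-linked gene Eif2s3y read 4.48 in the Fz4+/+ array of litter 1 and 9.74 to 10.89 in the 5 others, and Kdm5d read 3.71 there and 7.07 to 8.23 elsewhere. Xist, which only females express at a high level, read 12.05 to 12.54 on all 6 arrays. Xist and Y-linked signal were thus both high on the 5 other arrays, so these held RNA of both sexes. Signals of whole kidneys cannot tell fewer cells of a type from less RNA per cell.

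Col4a1 and Col4a2, which supply the collagen of nearly all basement membranes, differed little between the genotypes. Probe set 1452035_at of Col4a1 read 12.43, 12.38 and 12.37 in the Fz4-/- arrays of litters 1 to 3 and 12.23, 12.25 and 12.45 in the Fz4+/+ arrays. The Fz4+/+ array of litter 3 was the highest of all and the other 2 Fz4+/+ arrays were the lowest, so the genotypes overlapped. The difference was 0.082 ± 0.107 log2 (SE, n = 3 per genotype), a ratio of 1.06 with a 95% interval from 0.883 to 1.27. The second probe set of Col4a1, 1426348_at, read 10.69, 10.76 and 10.61 against 10.46, 10.46 and 10.65, and the genotypes differed by 0.17 ± 0.11 (SE). Col4a2 read 12.07, 11.96 and 11.94 in Fz4-/- and 11.68, 11.80 and 12.00 in Fz4+/+ kidneys, a difference of 0.17 ± 0.12 (SE) and a ratio of 1.12 with an interval from 0.91 to 1.38. All 3 probe sets were higher in the Fz4-/- array in litters 1 and 2 and lower in litter 3, by up to 0.40 log2 one way and 0.076 the other. The adjusted p by limma was 0.999988 on all 3, and without the Fz4+/+ array of litter 1 the difference of Col4a2 was 0.089 and that of Col4a1 on 1452035_at was 0.042.

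**Figure D1:**
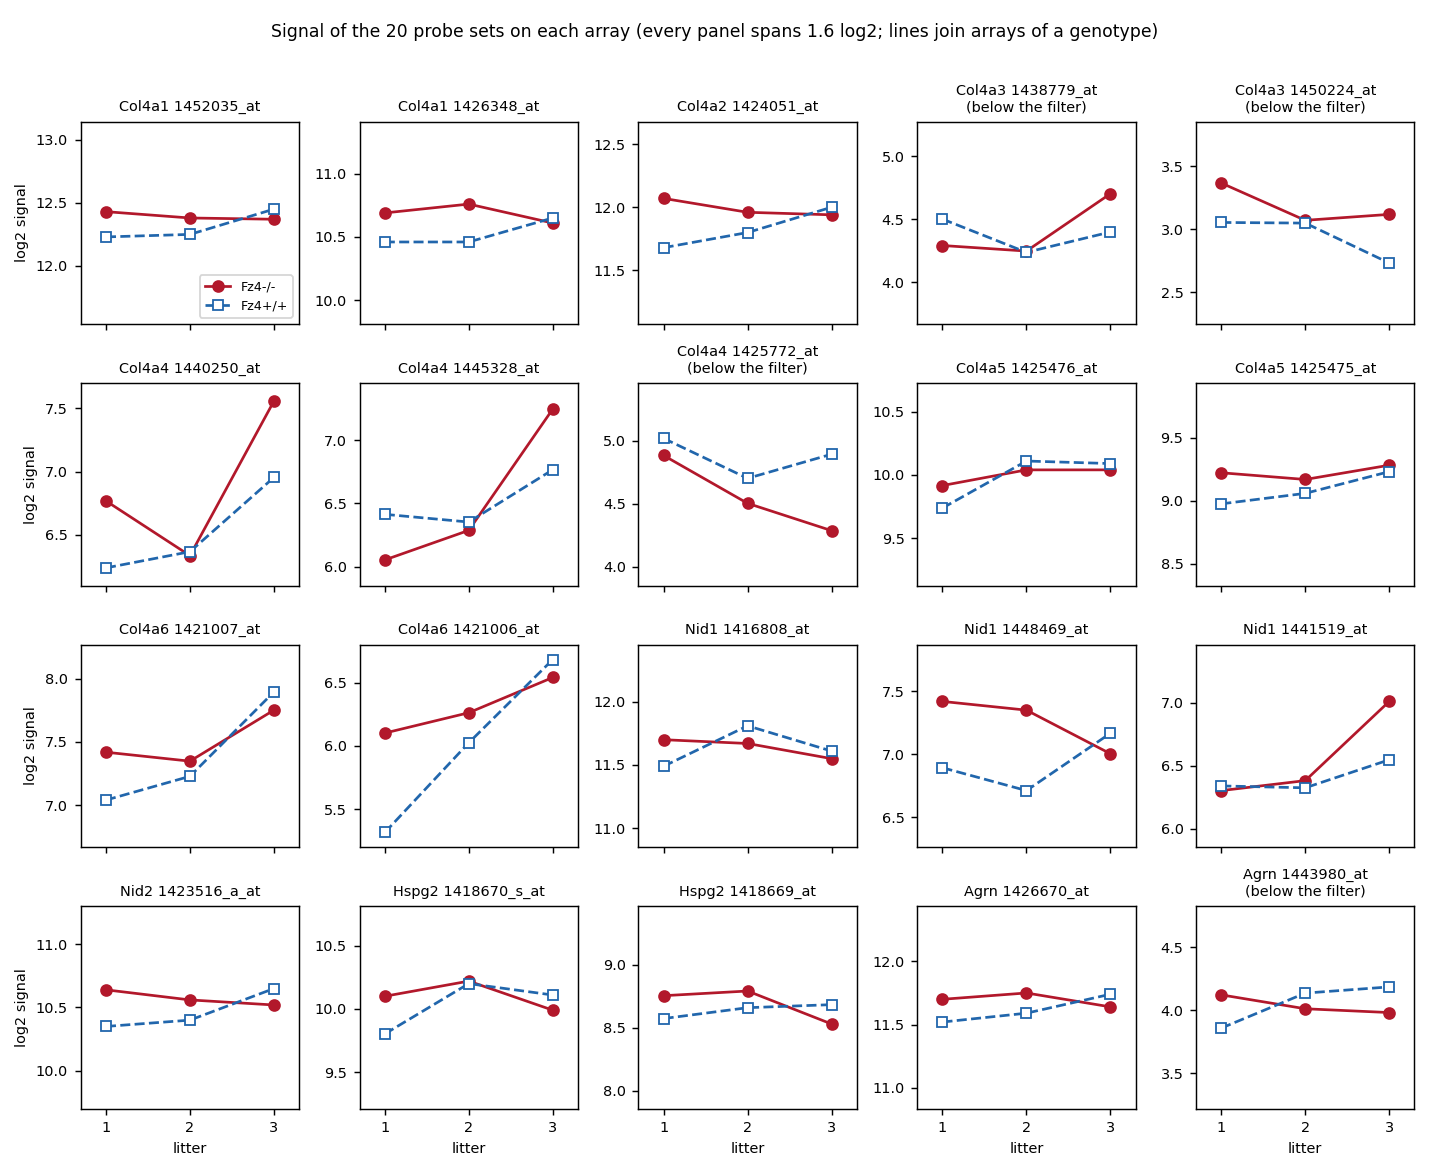
Log2 signal (vertical axis, 1.6 log2 in every panel) of the 20 probe sets by litter (horizontal axis), with 1 array per point, filled circles for Fz4-/- and open squares for Fz4+/+; lines join arrays of a genotype. Col4a1, Col4a2, Nid2 and Agrn (1426670_at) stayed within 0.40 log2 over the 6 arrays, whereas Col4a4 and Col4a6 were highest in litter 3 on their tested probe sets.

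Col4a3 and Col4a4, whose chains join that of Col4a5 in the mature glomerular mesh, were below the filter or dim. Col4a3 read 4.24 to 4.70 on 1438779_at and 2.73 to 3.37 on 1450224_at, below the filter on every array, and was not tested. On 1450224_at every Fz4-/- array (3.37, 3.07 and 3.12) lay above every Fz4+/+ array (3.05, 3.05 and 2.73), at levels below the filter, and 1438779_at overlapped. Col4a4 read 6.77, 6.33 and 7.56 in Fz4-/- and 6.24, 6.37 and 6.95 in Fz4+/+ kidneys on 1440250_at. The 2 arrays of litter 3 were the highest, and the genotypes overlapped. The difference was 0.37 ± 0.35 (SE), with a 95% interval from -0.49 to 1.23. With the litter in the fit the SE was 0.16, with an unadjusted p of 0.0782 by limma. The difference was 0.032 without the Fz4-/- array of litter 3 and 0.64 without that of litter 2. On 1445328_at the readings were 6.05, 6.29 and 7.25 against 6.41, 6.35 and 6.77, and the genotypes differed by 0.018 ± 0.327 (SE). The third probe set of Col4a4, 1425772_at, was below the filter at 4.29 to 5.02 and was lower in the Fz4-/- array in each of the litters, with a mean difference of -0.31. The probe sets of Col4a4 thus disagreed in sign.

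Col4a5, which joins both the glomerular and the other epithelial mesh, was well above the filter. Its probe set 1425475_at read 9.22, 9.17 and 9.28 in Fz4-/- and 8.98, 9.06 and 9.23 in Fz4+/+ kidneys. It was the sole tested probe set of the 16 with the Fz4-/- array on top in each of the 3 litters, by 0.25, 0.11 and 0.050 log2, yet the genotypes overlapped. The mean difference was 0.14 ± 0.11 (SE), with an adjusted p of 0.999988 by limma. On 1425476_at Col4a5 read 9.92, 10.04 and 10.04 against 9.74, 10.11 and 10.09, and the genotypes differed by 0.018 ± 0.137 (SE), which was -0.10 without the Fz4+/+ array of litter 1. Col4a6, its partner on the X chromosome, read 7.42, 7.35 and 7.75 in Fz4-/- and 7.04, 7.23 and 7.90 in Fz4+/+ kidneys on 1421007_at, a difference of 0.12 ± 0.25 (SE). On 1421006_at it read 6.10, 6.26 and 6.54 against 5.32, 6.03 and 6.68, and the genotypes differed by 0.29 ± 0.35 (SE). The Fz4+/+ array of litter 1 was the lowest on all 4 of these X-linked probe sets. This was not particular to them. The same array was the lowest on 12 of all 16 tested members, those of the autosomal genes Col4a1, Col4a2, Nid2 and Agrn among them. Without that array the difference of Col4a6 was -0.055 on 1421007_at and -0.052 on 1421006_at. On 1421007_at it was also below 0, at -0.0043, without the Fz4-/- array of litter 3. The Fz4+/+ array of litter 1 is the one that lacked Y-linked signal, and the part of the embryos' sex in these values was examined only as a covariate, a score of Xist minus Y-linked signal. With it the differences of Col4a6 were 0.014 and 0.081 and that of Col4a5 on 1425476_at was -0.055. Y-linked signal was low on the Fz4+/+ array of litter 1 alone, so the score mainly sets that array apart. By this score, sex and anything else particular to that array cannot be told apart.

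The nidogens, which link the collagen and laminin meshes, gave no call. Nid1 read 11.70, 11.67 and 11.55 in Fz4-/- and 11.49, 11.81 and 11.61 in Fz4+/+ kidneys on its brightest probe set, 1416808_at. The means were equal within 0.0022 ± 0.124 log2 (SE), and the 95% interval of the ratio ran from 0.812 to 1.24. A dimmer probe set of Nid1, 1448469_at, read 7.42, 7.35 and 7.01 against 6.89, 6.71 and 7.17. In the fit of genotype alone this was the member probe set with the smallest unadjusted p, 0.103 by limma. Its difference was 0.33 ± 0.17 (SE), with an adjusted p of 0.999988. With the litter in the fit its unadjusted p was 0.148, and Col4a4 on 1440250_at had the smallest, 0.0782. Nid1 on 1448469_at was higher in Fz4-/- by 0.53 and 0.64 in litters 1 and 2 and lower by 0.16 in litter 3. The third, 1441519_at, read 6.30 to 7.01 in Fz4-/- and 6.33 to 6.55 in Fz4+/+ kidneys, and its difference was -0.036, 0.057 and 0.46 in litters 1 to 3. The probe sets of Nid1 therefore did not move together. Nid2 read 10.64, 10.56 and 10.52 in Fz4-/- and 10.35, 10.40 and 10.65 in Fz4+/+ kidneys, a difference of 0.10 ± 0.12 (SE).

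The heparan sulfate proteoglycans perlecan and agrin also gave no call. Perlecan's gene Hspg2 read 10.10, 10.22 and 9.99 against 9.80, 10.20 and 10.11 on 1418670_s_at, and the genotypes differed by 0.062 ± 0.143 (SE). On 1418669_at it read 8.75, 8.79 and 8.53 against 8.57, 8.66 and 8.68, and the genotypes differed by 0.053 ± 0.115 (SE). Agrn read 11.70, 11.75 and 11.64 in Fz4-/- and 11.52, 11.59 and 11.74 in Fz4+/+ kidneys on 1426670_at, a difference of 0.077 ± 0.107 (SE) and a ratio of 1.05 with an interval from 0.88 to 1.26. Both genes overlapped between the genotypes on these 3 probe sets. The other probe set of Agrn, 1443980_at, read 3.86 to 4.18 and was not tested.

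Across the tested probe sets of these genes, limma called 0 of 16 at an adjusted p under 0.05 between the genotypes, as it called 0% of all 27022. At an unadjusted p under 0.05 there were 0 of 16, against 0.884% of all. None of the 16 lay with every Fz4-/- array above every Fz4+/+ array or with every one below, which held for 2.42% and 1.21% of all. The mean difference was above 0 in 16 of 16, with a median of 0.11 log2, and in 61.6% of all probe sets, with a median of 0.033. Marker lists of podocytes, ureteric epithelium and the early nephron were higher in Fz4-/- in all 3 litters, which held for 1 of 16 members and 14.2% of all tested. The list of nephron progenitors was lower in all 3 litters, with differences of -0.15, -0.018 and -0.20. Muscle markers (-0.17, -1.44 and -0.11) were too, with a mean difference of -0.575 and an exact permutation p of 0.1. So were those of neurons and Schwann cells (-0.16, -0.58 and -0.35, 3 of 8 above the filter) and adrenal cortex (-0.12, -0.50 and -0.22, 1 of 4 above it). Podocyte markers, 6 of 10 above the filter, averaged 8.97 to 9.13 log2 in Fz4-/- and 8.73 to 8.95 in Fz4+/+ kidneys, a difference of 0.20 (exact permutation p = 0.1, and 3 against 3 cannot go lower). Ureteric markers, 11 of 12 above the filter, averaged 9.28 to 9.41 against 8.97 to 9.32, and those of the early nephron, 7 of 8 above it, 8.70 to 8.97 against 8.39 to 8.84. These differences were 0.20 and 0.27, each with an exact permutation p of 0.2, and their part in the members' values was not tested. Genes within a list did not all move together, as the ureteric marker Ret was lower in Fz4-/- in each litter. Cldn5 of the podocyte list is also in the endothelial one. Without the Fz4+/+ array of litter 1 the members' mean difference was above 0 in 10 of 16, with a median of 0.036, against a median of 0.025 over all tested. After quantile normalization it was above 0 in 14 of 16, and with the sex score in 12. Without litter 3 it was above 0 in 15 of 16, with a median of 0.17 against 0.049 over all tested. Probe sets of 1 gene share its RNA, and the 6 arrays are the same for all, so these counts are not independent.

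**Figure D2:**
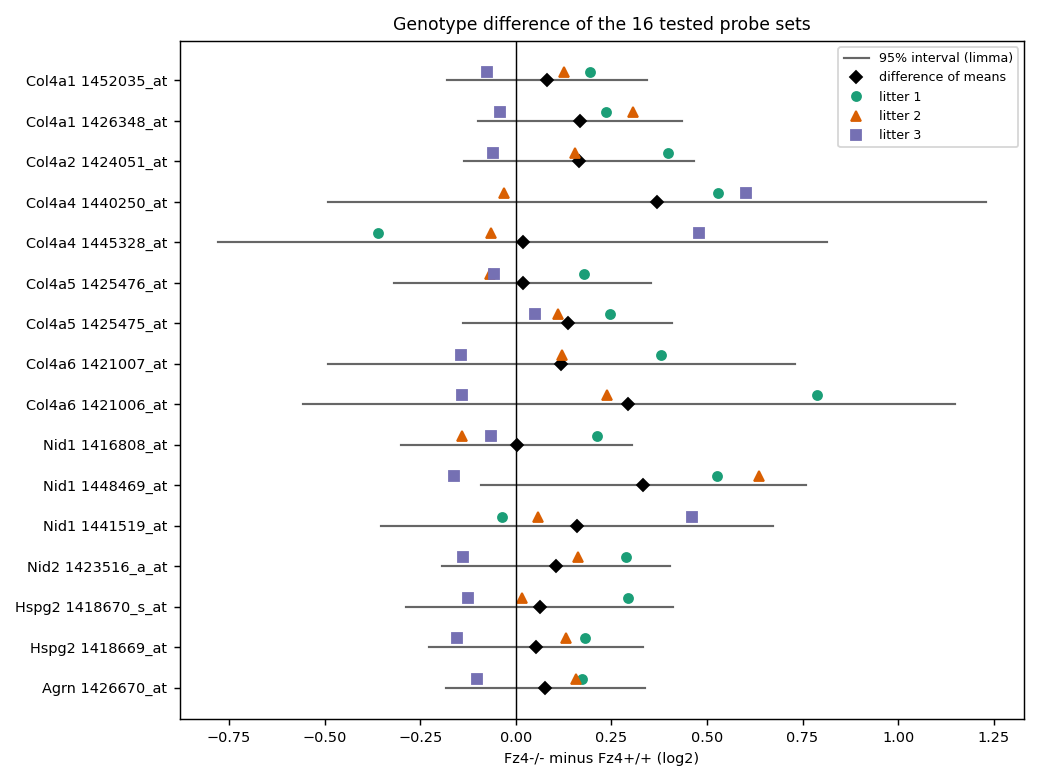
Fz4-/- minus Fz4+/+ in log2 (horizontal axis) for the 16 tested probe sets, with black diamonds for the difference of the 3 array means, grey lines for limma's unadjusted 95% interval, and coloured marks for the difference within each litter. Every interval includes 0, and litter 3 lies below 0 for 12 of the 16.

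Within litters the members' median was above 0 in litters 1 and 2 and below 0 in litter 3, with exceptions among Col4a4, Col4a5 and Nid1. In litter 1 the Fz4-/- array was higher for 14 of 16 probe sets, with a median of 0.24 log2, where all tested probe sets had a median of -0.0066. In litter 2 it was higher for 12 of 16, with a median of 0.12, close to the median of 0.12 over all tested. In litter 3 it was higher for 4 of 16, with a median of -0.070 against -0.00025 over all. Higher in both litters 1 and 2 and lower in litter 3 described 10 of 16 members and 17.5% of all tested probe sets. Higher in all 3 litters described 1 of 16 against 14.2%, and lower in all 3 described 0 of 16 against 7.28%. The Fz4+/+ array of litter 1 was the lowest of the 6 for 12 of 16 members and for 17.1% of all tested probe sets. This pattern and that of opposite signs in litters 1 and 3 were picked after the values were seen and are descriptions. In the same array the endothelial markers averaged 9.03 log2, against 8.94 to 9.20 in the others, and 2 of their 13 genes were lowest there, as were 4 of 7 stromal genes and 0 of 9 muscle genes. Within litters the endothelial markers, all 13 above the filter, differed by 0.17, 0.23 and -0.0095 in litters 1 to 3. The stromal markers differed by 0.12, 0.011 and -0.0020, the macrophage markers by 0.14, 0.027 and -0.074 and the erythroid markers by 0.24, 0.29 and -0.78. These 4 cell type lists had the signs of the members' medians in every litter, with the endothelial and stromal ones near 0 in litter 3. The sex-linked list, which averages Xist with Y-linked genes, had them too, at 2.60, 0.27 and -0.75. Xist itself had the opposite sign in each litter, at 12.30, 12.05 and 12.42 in Fz4-/- and 12.54, 12.33 and 12.11 in Fz4+/+ kidneys. The mean of this list is thus no measure of sex. The mean of the endothelial list was 9.14 to 9.20 in Fz4-/- and 8.94 to 9.15 in Fz4+/+ kidneys, with an exact permutation p of 0.2. The muscle markers differed by -0.17, -1.44 and -0.11. The part of these cell types in the result was not tested. Of the 6 lists of other basement membrane genes set out below, 2 also had the members' signs in litters 1 to 3. These were laminin chains (0.14, 0.11 and -0.0064) and other basement membrane proteins (0.14, 0.13 and -0.065). The Fz4+/+ array of litter 1 was lowest for 10 of 19 breakdown genes, 8 of 21 other proteins and 8 of 23 genes for making collagen. It was lowest for 2 of 7 laminin chains, 2 of 17 receptors and 3 of 15 heparan sulfate genes.

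Litter 3 read highest on the tested probe sets of Col4a4 and Col4a6, whose chains belong to more specialised meshes. Over both genotypes litter 3 exceeded litter 1 by 0.75 and 0.77 log2 on the tested probe sets of Col4a4, and by 0.59 and 0.91 on those of Col4a6. With each array left out these differences ran from 0.58 to 0.93 and from 0.43 to 1.12 for Col4a4 on 1440250_at and 1445328_at. For Col4a6 they ran from 0.40 to 0.79 and from 0.54 to 1.27 on 1421007_at and 1421006_at. The values were lowest for Col4a4 without the Fz4-/- array of litter 3, and for 1421006_at without the Fz4+/+ array of litter 1. Both arrays of litter 3 lay above both of litter 1 on these 4 probe sets, with limma's unadjusted F-test p between 0.0164 and 0.0467 and an adjusted p between 0.167 and 0.213. None passed the threshold. On probe sets below the filter litter 3 minus litter 1 was -0.36 for Col4a4 (1425772_at), and 0.154 (1438779_at) and -0.285 (1450224_at) for Col4a3. Col4a5 exceeded litter 1 by 0.24 and 0.16 in litter 3, and Nid1 on 1441519_at by 0.46. The other 9 probe sets, of Col4a1, Col4a2, Nid1, Nid2, Hspg2 and Agrn, differed by -0.070 to 0.10 between these litters. Both arrays of litter 3 were above both of litter 1 for 7 of 16 members and for 48.6% of all tested probe sets, and both were below for 0 of 16 and 22.1%. The F-test gave 4 of 16 members an unadjusted p under 0.05, near the 23% of all, and it called 0 of 16 and 0% of all after adjustment. With an intensity trend in the fit limma called 2077 of all and again none of the members. The macrophage markers, 5 of 6 above the filter, averaged 7.63 and 7.71 log2 in litter 3 and 7.07 to 7.21 in the others, and their part in the litter values was not tested. Litter and anything else that differed between litters, such as the day of dissection or the exact stage, cannot be told apart.

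**Figure D3:**
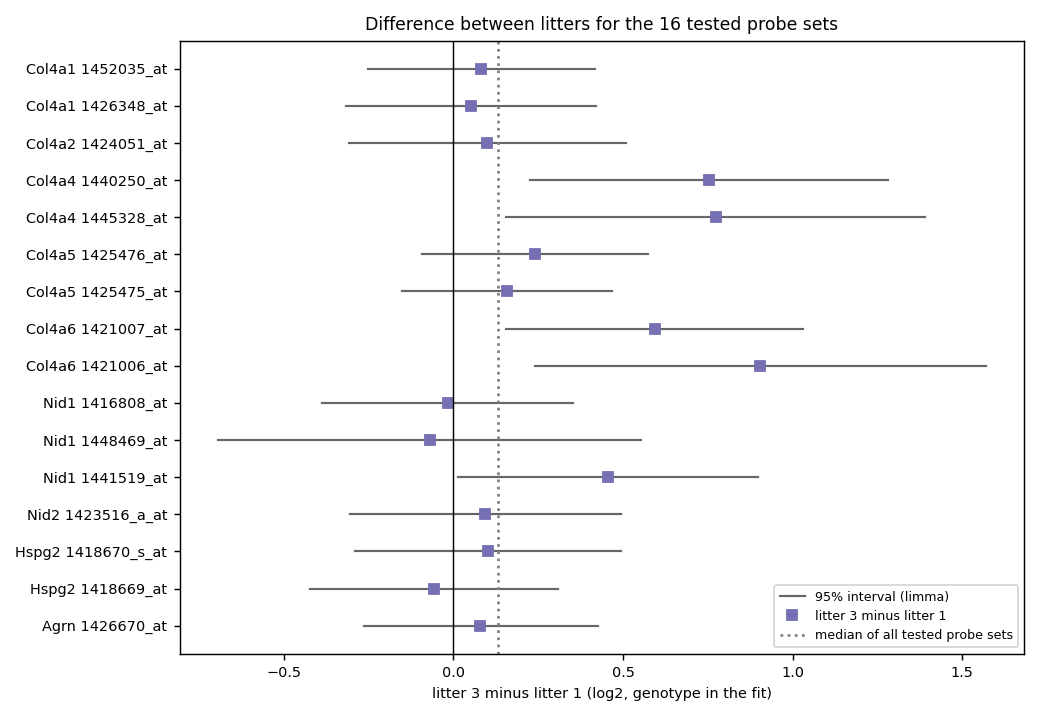
Litter 3 minus litter 1 in log2 (horizontal axis) for the 16 tested probe sets, from the fit with genotype, with limma's unadjusted 95% interval as grey lines; the dotted line is the median over all tested probe sets, 0.13. The 4 tested probe sets of Col4a4 and Col4a6 lie farthest to the right, at 0.59 to 0.91.

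Among themselves Col4a1, Nid2 and Agrn lay closest. Over the 6 arrays, after each gene's mean was taken off its brightest probe set, Col4a1 and Nid2 differed by a root mean square of 0.034 log2 and Col4a1 and Agrn by 0.038. Col4a2 came within 0.039 of Nid2 and 0.060 of Col4a1. Nid1 and Hspg2 came within 0.077 of each other, and Col4a5 came within 0.082 of Hspg2. Col4a4 was 0.27 to 0.50 from every other member. The measure is not scaled to a gene's own spread. Genes that vary little therefore come close to each other more easily, and one that varies much lies far from them. The standard deviation over the arrays was 0.090 for Col4a1 and 0.089 for Agrn, with 14.7% and 14.1% of 12535 genes varying less, and 0.50 for Col4a4, with 93.7% varying less. Outside the group, the genes most like Col4a1 were Gcdh (0.016), Bahcc1 (0.020) and Hdac6 (0.023). Those nearest Nid1 were Wasf1, Macf1 and Cttnbp2nl, at 0.021 to 0.031, and those nearest Hspg2 were Cebpb, Cbarp and U2af2, at 0.037 to 0.047. Nearest to Agrn were Eng, a co-receptor of endothelial cells, Add1 and Adpgk, at 0.024 to 0.027.

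Other genes of the basement membrane were set beside them in 6 lists, and limma called none of their members between the genotypes. Between the genotypes 61.6% of all tested probe sets were above 0, the share to set beside each count here. Of 23 tested genes for the making and crosslinking of type IV collagen, 20 were above 0, with a median of 0.069. P3h2, a prolyl hydroxylase of collagen, differed by 0.33 ± 0.14 (SE), P4ha1, a catalytic subunit of the main collagen prolyl hydroxylase, by 0.33 ± 0.15 and P3h3 by 0.25 ± 0.15. All 7 laminin chains tested were above 0, with a median of 0.073, and Lama5, Lama1 and Lamc1 differed by 0.30, 0.29 and 0.18. Of 21 other basement membrane proteins 13 were above 0, with a median of 0.055, and the collagen gene Col15a1, Fras1 and Frem2 differed by 0.23, 0.23 and 0.19. Among receptors 14 of 17 were above 0, with a median of 0.091, and the integrin chain Itgb3, the laminin receptor Bcam and the hyaluronan receptor Cd44 differed by 0.60, 0.27 and 0.20. Of 19 genes for breakdown and its inhibitors 13 were above 0, with a median of 0.077. The protease gene Adamts4 differed by 0.36 ± 0.12 (SE) with an unadjusted p of 0.0253, and Mmp16 and Adam17 by 0.29 and 0.14. Of the genes named here P3h2, Adamts4 and Adam17 were higher in every Fz4-/- array than in any Fz4+/+ array. Genes were named for the smallest p of their list, which favours such separation. Of all tested probe sets 2.42% lay wholly above, 1.21% lay wholly below and 0.884% had an unadjusted p under 0.05 by limma. Of 15 genes that build heparan sulfate chains 12 were above 0, with a median of 0.066. The sulfotransferase gene Hs3st3a1 read lower in every Fz4-/- array than in any Fz4+/+ array, by -0.45 ± 0.16 (SE) with an unadjusted p of 0.0261, and B3galt6 and Hs6st2 differed by 0.19 and 0.11. Every gene named here had an adjusted p of 0.999988 by limma, and the medians lie beside 0.033 over all tested probe sets. The counts of 13 of 21 and 13 of 19 lie nearest the share of 61.6%.

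**Figure D4:**
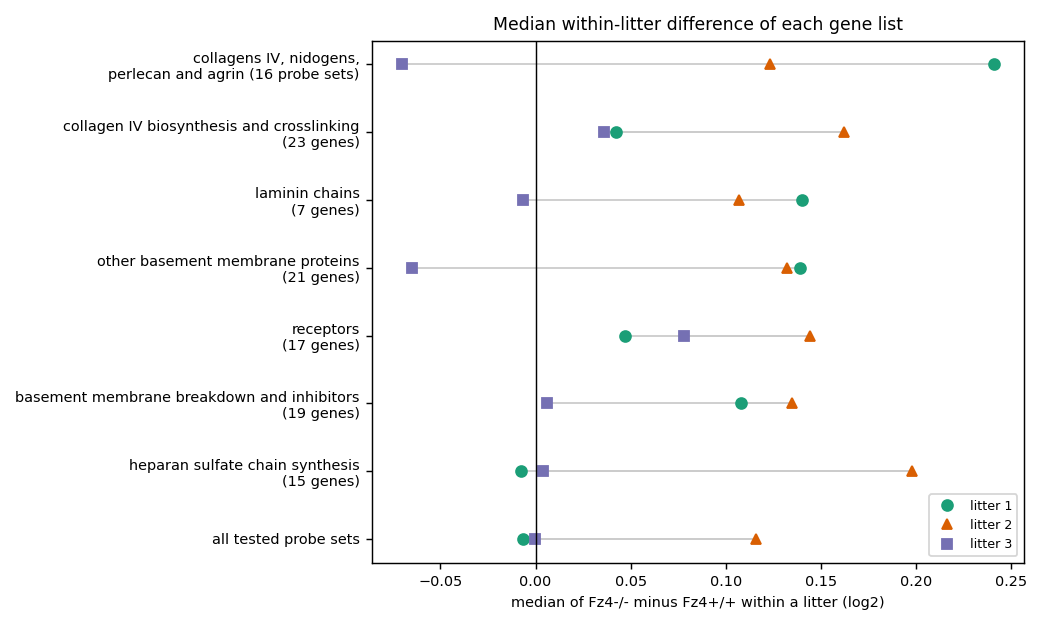
Median of Fz4-/- minus Fz4+/+ within each litter, in log2 (horizontal axis), for the 16 tested member probe sets, 6 lists of other basement membrane genes and all tested probe sets; each mark is 1 litter. The collagen IV, nidogen, perlecan and agrin probe sets span -0.070 to 0.24, and litter 2 lies above 0 in every row.

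Between litters the same lists also gave no call. The genes with the smallest p of the F-test for making collagen were P3h1, Plod1 and Ctage5, which were higher in litter 3 than in litter 1 by 0.70, 0.81 and 0.39 log2. The list's median was 0.26 and 20 of 23 were above 0, where 17718 of all 27022 tested probe sets were above 0 with a median of 0.13. Above 0 were also 6 of 7 laminin chains, with a median of 0.16, 19 of 21 other basement membrane proteins, with 0.23, and 15 of 19 genes for breakdown and its inhibitors, with 0.25. Heparan sulfate synthesis had 6 of 15 above 0 and a median of -0.038. Hmcn1, Smoc2 and Vwa1 of the other basement membrane proteins differed by 0.79, 0.58 and 0.87, and Lamb1, Lamb2 and Lamc1 by 0.36, 0.28 and -0.31. Of the breakdown list, Mmp24, Hpse, which encodes heparanase, and Mmp16 differed by 0.67, 0.87 and 0.61. Ndst2 and Xylt2 of heparan sulfate synthesis differed by 0.60 and 0.38 and Hs3st3b1 by -0.51. Of the receptors 7 of 17 were above 0, with a median of -0.099, and Itga9, Itgb1 and Sdc4 differed by 0.41, -0.39 and -0.51. The adjusted p of the F-test was between 0.145 and 0.263 for these genes.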

How the data were processed

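The deposited values are log2 expression per probe set, which the authors made with RMA, per the submitters' processing notes; no version is given. They run from 2.22 to 14.79 and were used as deposited. RMA makes the arrays' distributions nearly equal and compresses differences near background, and no detection call was made. Names come from the platform annotation. The Entrez numbers of all 20 member probe sets matched RefSeq genes of GRCm38.p6, with 0 symbols changed. After 64 control probe sets were left out, the 27022 probe sets with a mean at or above the 40th percentile were tested across all genes with limma 3.58.1 in R 4.3.3 (linear models with empirical Bayes variances, two-sided p-values adjusted by Benjamini-Hochberg, threshold 0.05). Genotype was the sole term, so the SEs and intervals of the genotype differences also hold the spread between litters. Litters were compared by a moderated F-test with genotype in the fit. The fits were checked on simulated data with independent noise. For the genotype fit these data held no differences between litters, unlike the real arrays, so the check does not cover them. A gene's brightest probe set was used where 1 value per gene was wanted.

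Named genes were all member probe sets, per list the 3 genes of smallest unadjusted p in either fit, and the 3 nearest in pattern to Col4a1, Nid1, Hspg2 and Agrn. Lists of markers covered endothelium, podocytes, ureteric epithelium, nephron progenitors, early nephron, stroma, muscle, nerve, erythroid cells, macrophages, liver, adrenal cortex and sex. Their means differed between the genotypes with an exact permutation p from 0.1, the smallest that 3 against 3 allows, to 1. The members and lists were chosen with earlier results of these data known.

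Replicate numbers are litter numbers in the labels, and so they pair the arrays. Deviations from the genotype means correlated by 0.577, 0.178 and 0.809 in litters 1, 2 and 3.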

Additional observations from a re-analysis of the deposited data

How the results depend on the processing

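Alternatives were other filters, quantile normalization, an intensity trend, no variance moderation, array weights, the litter in the fit, a sex score as a covariate, no genotype term in the litter fit, averaging over probe sets of a gene, each array left out and, chosen after the data were seen, litter 3 left out. limma called 0 probe sets between the genotypes under all but array weights, which called 2, neither of a member gene. Array weights gave 10 of 16 member probe sets an unadjusted p under 0.05, beside 6084 of all 27022. The replicate block by litter also called 0, with 841 at an unadjusted p under 0.05 and 0 of them members, and changed no call. Between litters the count was 2077 with an intensity trend and 3 without the genotype term, and with each array left out it ran from 0 to 1506 (1506 without the Fz4-/- array of litter 2 and 326 without the Fz4+/+ array of litter 2). No member probe set was called under any setting, with the smallest adjusted p at 0.0635.

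Member differences between the genotypes kept their sign in 239 of 262 alternative values and those between litters 3 and 1 in 178 of 198. Many of these values could not change. Other filters, an intensity trend, no variance moderation and the litter in the fit leave a genotype difference as it was. Between litters 3 and 1 the filters, the trend, array weights and dropping the genotype term do so. Leaving out an array of the remaining litter does so too. The counts therefore say little about how stable the signs are. Genotype differences that changed sign were those of Col4a4 on 1445328_at (-0.0083 after quantile normalization, -0.11 with array weights, -0.0082 with the sex score, -0.21 without litter 3), Col4a5 on 1425476_at (-0.0056 after quantile normalization and -0.055 with the sex score), Nid1 on 1416808_at (-0.037 with the sex score) and Hspg2 on 1418670_s_at (-0.012 with the sex score). With each array left out, the genotype difference ran from -0.34 to 0.26 for Col4a4 on 1445328_at and from -0.10 to 0.082 for Col4a5 on 1425476_at. It ran from -0.055 to 0.37 and from -0.052 to 0.63 for Col4a6 on 1421007_at and 1421006_at. For Nid1 it ran from -0.072 to 0.090 on 1416808_at and from -0.061 to 0.29 on 1441519_at, and for Hspg2 on 1418670_s_at from -0.056 to 0.14.

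The difference between litters 3 and 1 changed sign after quantile normalization for Col4a1 on 1426348_at (-0.020) and Hspg2 on 1418670_s_at (-0.0093), and with the mean of its probe sets for Nid1 (0.12). With each array left out it ran from -0.036 to 0.20 and from -0.10 to 0.21 for Col4a1 on 1452035_at and 1426348_at, from -0.076 to 0.28 for Col4a2, from -0.17 to 0.14 and from -0.44 to 0.30 for Nid1 on 1416808_at and 1448469_at, from -0.088 to 0.28 for Nid2, from -0.071 to 0.28 and from -0.21 to 0.098 for Hspg2 on 1418670_s_at and 1418669_at, and from -0.054 to 0.21 for Agrn. The cause was not tested. Signals under the filter, as for Col4a3, hold little measure of RNA.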
